A study of Rattus norvegicus with 24 samples.

Results

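The 8 genes described here are regulators of the integrated stress response and of what follows from it: Atf4, Atf3, Ddit3, Cebpb, Trib3, Nupr1, Chac1 and Ddit4. A gene was taken in where the array's annotation pairs a probe set with its symbol and no other, and where 1 gene had several such probe sets, the 1 with the highest mean log2 intensity was kept. All 8 were found, of 17245 genes measured in this way. Atf4, Atf3, Ddit3 and Cebpb encode DNA-binding factors of the basic leucine zipper kind, while Trib3 encodes a pseudokinase, Chac1 an enzyme and Ddit4 an inhibitor of a kinase complex, so the set is wider than transcription factors.

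Liver RNA came from 24 male Wistar rats, with 1 array per animal and 6 animals in each of 4 groups. The groups were 5% protein for 4 weeks, 20% protein for 4 weeks, 5% protein for 1 week and 20% protein for 1 week. No group carried an allele, and no drug is named. The age of the animals is not given in the sources used here. Percentages and times are given as the sample titles have them. The description codes differ, with 4 for 5% and 18 for 20%, and the design text mentions 4 weeks of feeding but not 1 week.

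The integrated stress response is the shared branch of several cellular alarms. Kinases that sense uncharged transfer RNA, unfolded protein in the endoplasmic reticulum, heme shortage or viral RNA phosphorylate the alpha subunit of the translation factor eIF2, which lowers protein synthesis in general while the messenger RNA of ATF4 is translated more. ATF4 then pairs with C/EBP proteins and other leucine zipper factors and switches on genes for amino acid supply, transport and cell fate, and in liver the arm that senses scarce amino acids is the one best known to respond to diet. Arrays measure messenger RNA, so the translational step itself is not seen here.

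ATF4 binds composite elements with the core TTGCATCA, of which the form TTNCATCA is a looser match. Promoter windows running from 250 bases before to 50 bases after the gene start were taken from RefSeq, build GRCr8, which holds 7 of the 8 genes. Nupr1 was matched by symbol and the others by Entrez identifier, and Atf3 has no entry. The looser form was found in 3 of the 7, on the strand of the gene in each. These stretches are shown because they carry that element in the promoters of 3 genes that rose on 5% protein, with the 8 letters of the match in capitals.
Trib3, chr3:161275534-161275614, minus strand, bases -81 to -1 from the start: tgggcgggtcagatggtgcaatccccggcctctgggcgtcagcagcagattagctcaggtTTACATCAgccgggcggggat
Nupr1, chr1:190645902-190646016, minus strand, bases -115 to -1 from the start: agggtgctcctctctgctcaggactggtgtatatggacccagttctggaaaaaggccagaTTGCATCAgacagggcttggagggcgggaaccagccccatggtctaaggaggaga
Chac1, chr3:126795904-126796031, plus strand, bases -227 to -100 from the start: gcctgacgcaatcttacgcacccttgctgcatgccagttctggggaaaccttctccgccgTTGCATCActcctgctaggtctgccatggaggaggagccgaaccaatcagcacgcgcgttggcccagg
Nupr1 and Chac1 hold the core itself, at -55 to -48 and at -167 to -160, and Trib3 holds the looser form at -21 to -14.

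Searched on both strands of all 14117 promoters with an entry, the core was in 0.659% and the looser form, which includes the core, in 2.96%. The cAMP response element TGACGTCA was in 2.4% of promoters, and the endoplasmic reticulum stress element of ATF6, searched as its CCAAT box, spacer and CCACG end, in 0.113%. Neither of these was in any of the 7 windows. The windows of Atf4, Ddit3, Ddit4 and Cebpb held none of the 4 sequences, which says only that these letters are not within these 300 bases. Among 24 promoters of other known ATF4 targets, 6 held the looser form, those of Fgf21, Herpud1, Pck2, Pycr1, Slc1a4 and Slc7a1. Of all genes that rose on 5% protein at 4 weeks, 3.32% of 1958 promoters held it, and of those that fell 1.94% of 1757. At 1 week it was in 4.51% of 266 promoters of genes that rose and 1.16% of 346 that fell. A link between the element and the rise was not tested.

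Array medians lay between 42.4 and 45.5 on the unlogged scale, and arrays of 1 group correlated at 0.984 to 0.995 across all 29214 probe sets. The 7 hepatocyte markers measured, Alb and Ttr among them, averaged 12.7 to 13.1 log2 units in every animal. Levels below are log2 of the deposited intensity, and a difference of 1 is a doubling. A gene was called, and is said to have risen or fallen, at an adjusted p below 0.05 over the 17245 genes in limma. Errors of differences are standard errors with n = 6 animals per group, and probe sets of different genes are not set against each other.

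At 4 weeks, 7 of the 8 genes rose on 5% protein and none fell, where 13.4% of all genes were called higher and 12.4% lower. Their fold changes ran from 1.69 for Atf4 to 29.9 for Trib3, and the median difference over the 8 was 1.32, against -0.01 over all genes. For 6 of the 8, every 5% animal lay above every 20% animal, which held for 6.55% of all genes. At 1 week, 6 of the 8 rose and none fell, where 1.86% of all genes were called higher and 2.44% lower. The fold changes of those 6 ran from 1.42 for Atf4 to 7.72 for Trib3, and the median over the 8 was 0.92, against -0.01 over all genes. With only the 2 groups of 1 week in the fit, 3 of the 8 were called, Ddit3, Trib3 and Nupr1, and with well row as a random block 4 were, Atf4, Ddit3, Trib3 and Nupr1. The groups did not overlap for 4 of the 8, which was so, with 5% above, for 1.2% of all genes. Atf4, Ddit3, Trib3, Nupr1, Chac1 and Ddit4 rose at both times, where 1.39% of all genes did. Whole liver was measured, so more RNA per cell and a changed number of cells of a type cannot be told apart.

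**Figure D1:**
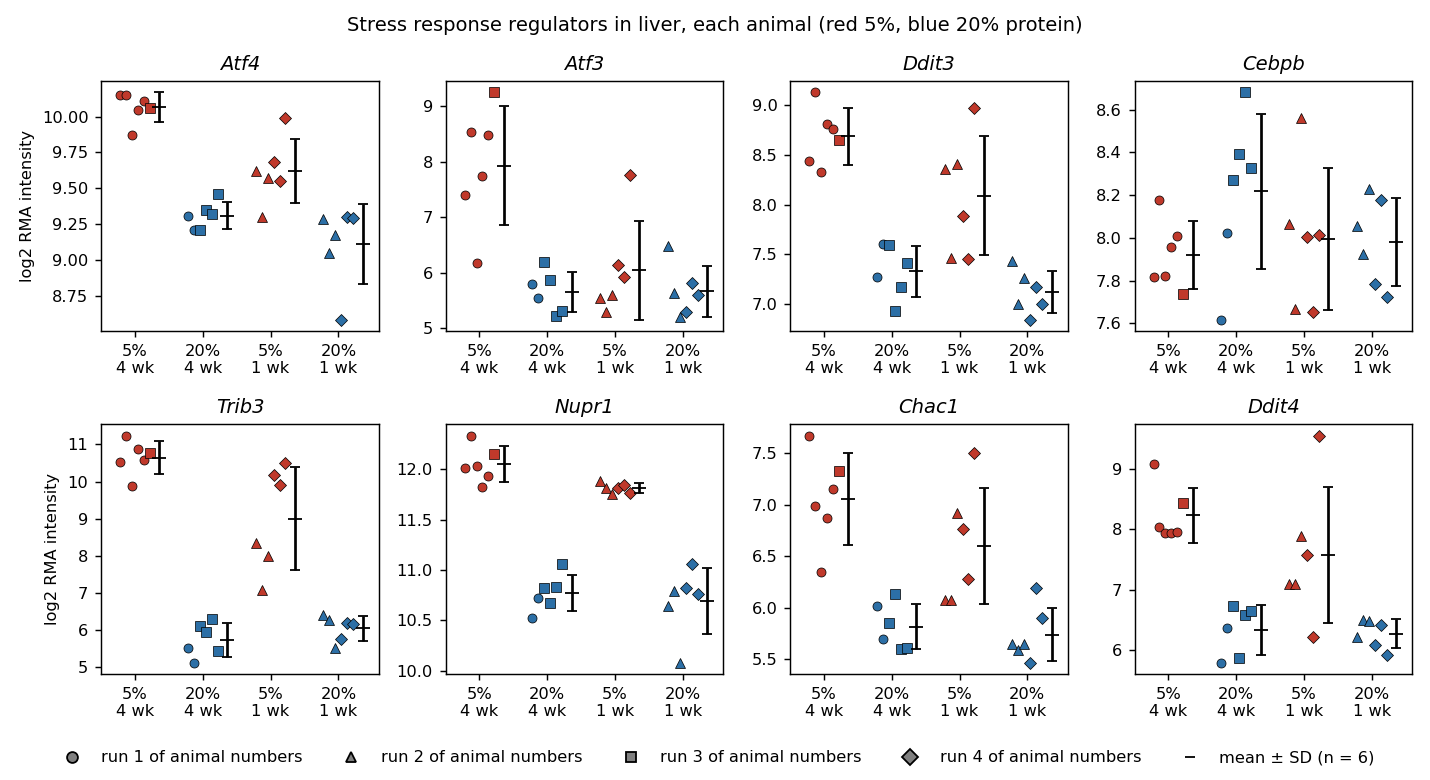
Log2 intensity (vertical axis, 1 scale per gene) of the 8 genes in every animal, with 5% protein in red left of 20% protein in blue at 4 weeks and then at 1 week. Symbols mark the run of animal numbers, and bars are the mean ± SD of 6 animals. Red points lie above all blue points of the same week for Atf4, Ddit3, Trib3 and Nupr1, and the points of Cebpb overlap at both times.

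Atf4 encodes the factor at the centre of the response. At 4 weeks its lowest, median and highest values were 9.87, 10.08 and 10.15 on 5% protein, against 9.21, 9.31 and 9.46 on 20% protein. The groups stood well apart, and the 6 animals on 5% protein covered only 0.28 log2 units. The difference was 0.76 ± 0.11 (adjusted p = 1.29e-05). At 1 week the values were 9.30, 9.60 and 9.99 on 5% protein, against 8.58, 9.23 and 9.30 on 20% protein. The groups touched without overlap, since rat 50, the lowest on 5% protein, lay above the highest 20% animals only in the third decimal, and rat 77 on 20% protein lay far below its group. The difference was 0.51 ± 0.11 (adjusted p = 0.0078).

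Ddit3 encodes CHOP, a C/EBP-like factor that ATF4 induces and that is linked to cell death under lasting stress. Its values at 4 weeks were 8.33, 8.71 and 9.13 on 5% protein, against 6.93, 7.34 and 7.60 on 20% protein. No animal crossed over, and Ddit3 rose by 1.36 ± 0.20 (2.56-fold, adjusted p = 1.76e-05). After 1 week it stood at 7.45, 8.12 and 8.97 on 5% protein, against 6.84, 7.09 and 7.44 on 20% protein. Rats 75 and 50 on 5% protein, at 7.45 and 7.46, lay next to the highest 20% animal and rat 76 far above, and the rise was 0.97 ± 0.20 (1.96-fold, adjusted p = 0.00582).

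Atf3 encodes a factor of the ATF/CREB family that many stresses induce. At 4 weeks it stood at 6.17, 8.12 and 9.25 on 5% protein, against 5.22, 5.66 and 6.19 on 20% protein. In 5 of the 6 animals on 5% protein it was above every 20% animal, and rat 26 lay within the 20% range. Atf3 rose by 2.28 ± 0.40 (4.86-fold, adjusted p = 0.000144). At 1 week the values were 5.29, 5.76 and 7.76 on 5% protein, against 5.20, 5.61 and 6.47 on 20% protein. Here only rat 76 lay above the 20% animals. The difference of 0.38 ± 0.40 was not called (adjusted p = 0.714), and its 95% interval, from -0.45 to 1.21, includes both no change and a doubling. Without rat 76 the difference was 0.03 (adjusted p = 0.985).

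Cebpb encodes C/EBP beta, a liver factor of the acute phase and of gluconeogenesis that can pair with ATF4. Its values at 4 weeks were 7.74, 7.89 and 8.18 on 5% protein, against 7.62, 8.30 and 8.68 on 20% protein. The groups overlapped through rats 29 and 30, the lowest 20% animals. The difference of -0.30 ± 0.15 was not called (adjusted p = 0.166, 95% interval -0.61 to 0.02), while without rat 29 it was -0.42 and was called (adjusted p = 0.0297). At 1 week the values were 7.65, 8.01 and 8.56 on 5% protein, against 7.72, 7.99 and 8.23 on 20% protein. The ranges lay almost on top of each other, and the difference of 0.01 ± 0.15 had a 95% interval of -0.30 to 0.33 (adjusted p = 0.982).

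Trib3 encodes a tribbles pseudokinase that ATF4 and CHOP induce and that binds ATF4 and the kinase AKT. It moved more than any other of the 8 at both times, with the 9th largest absolute difference of all genes at 4 weeks and the 5th largest at 1 week. At 4 weeks its values were 9.89, 10.68 and 11.24 on 5% protein, against 5.12, 5.73 and 6.31 on 20% protein. More than 3 log2 units without any animal separated the groups, and the rise was 4.90 ± 0.41 (29.9-fold, adjusted p = 6.88e-09). At 1 week they were 7.09, 9.13 and 10.49 on 5% protein, against 5.52, 6.18 and 6.40 on 20% protein. The 20% animals stayed within 0.89 log2 units while the 5% animals spread over 3.41, and the rise was 2.95 ± 0.41 (7.72-fold, adjusted p = 0.00018).

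Nupr1 encodes a small, stress-induced nuclear protein that binds chromatin factors. At 4 weeks it stood at 11.82, 12.03 and 12.33 on 5% protein, against 10.52, 10.77 and 11.06 on 20% protein. The groups did not overlap, and the rise was 1.28 ± 0.12 (2.42-fold, adjusted p = 2.88e-08). At 1 week the values were 11.75, 11.81 and 11.88 on 5% protein, against 10.08, 10.78 and 11.06 on 20% protein. The 6 animals on 5% protein were nearly equal, with a mean of 11.81 ± 0.05, against 10.69 ± 0.33 on 20% protein (SD, n = 6 each). Nupr1 rose by 1.12 ± 0.12 (2.17-fold, adjusted p = 5.03e-06), which was the smallest p of the 8 genes at that time.

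Chac1 encodes an enzyme that breaks down glutathione and is a known target of ATF4. Its values at 4 weeks were 6.35, 7.07 and 7.67 on 5% protein, against 5.60, 5.77 and 6.13 on 20% protein. No animal crossed over, and the rise was 1.24 ± 0.21 (2.37-fold, adjusted p = 0.00011). At 1 week they were 6.08, 6.52 and 7.50 on 5% protein, against 5.46, 5.65 and 6.19 on 20% protein. Rats 49 and 50 on 5% protein, both at 6.08, lay below rat 78 on 20% protein. The rise was 0.86 ± 0.21 (1.82-fold, adjusted p = 0.0212), and it was not called with rat 74 or rat 76 left out (highest adjusted p = 0.0549) or under the random block of well rows (adjusted p = 0.0787). The other probe set of Chac1 was dimmer, with a mean of 4.67 over all animals. There the differences were -0.09 at 4 weeks (adjusted p = 0.563) and 0.21 at 1 week (adjusted p = 0.247), so the rise was seen on 1 of its 2 probe sets.

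Ddit4 encodes REDD1, which restrains the growth-promoting kinase complex mTORC1. At 4 weeks it stood at 7.94, 8.01 and 9.09 on 5% protein, against 5.78, 6.47 and 6.74 on 20% protein. The groups were more than 1 log2 unit apart at their nearest, and the rise was 1.91 ± 0.35 (3.76-fold, adjusted p = 0.000191). At 1 week the values were 6.22, 7.34 and 9.56 on 5% protein, against 5.91, 6.31 and 6.49 on 20% protein. In 5 of the 6 animals on 5% protein it was above every 20% animal, and rat 75 lay inside the 20% range. The rise was 1.31 ± 0.35 (2.48-fold, adjusted p = 0.0301). It was not called with any 1 of rats 54 and 74 (5% protein) or 51, 77 and 79 (20% protein) left out, where the adjusted p reached 0.066 at most, or under the random block of well rows (adjusted p = 0.0982).

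**Figure D2:**
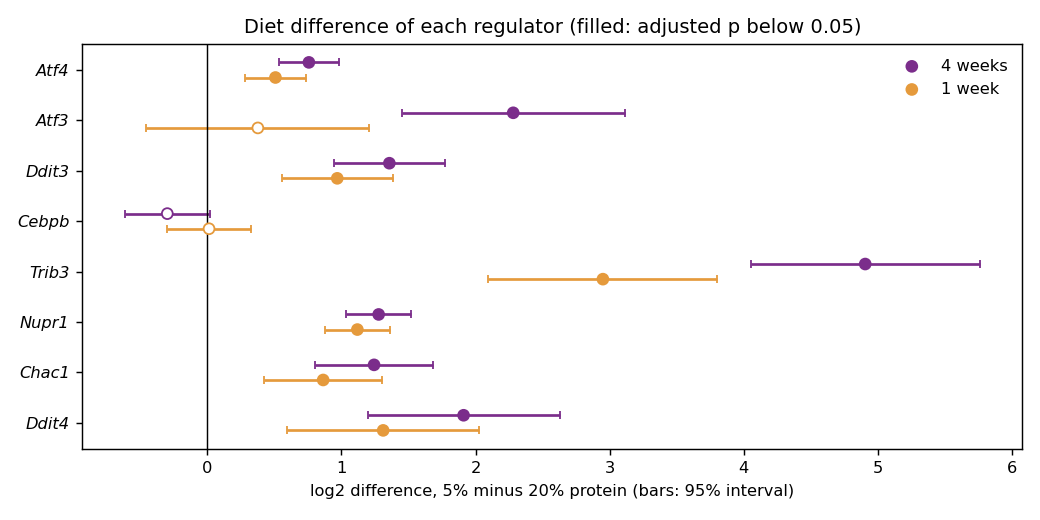
Difference in log2 intensity (horizontal axis, 5% minus 20% protein) of the 8 genes at 4 weeks (purple) and at 1 week (orange), with 95% intervals and filled points at an adjusted p below 0.05. The intervals of Cebpb cross 0 at both times, that of Atf3 at 1 week only, and Trib3 stands furthest to the right at both.

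The 4 groups then show how each gene changed with time on each diet. These comparisons share animals with the diet comparisons, so the sets of values are not independent. The animal numbers fall into 4 runs, and no run spans both times, so time and run cannot be told apart. On 5% protein, 3 of the 8 genes rose between 1 and 4 weeks and none fell, where 4.15% of all genes were called higher and 4.13% lower. Atf3 was higher at 4 weeks than at 1 week by 1.89 ± 0.40 (3.71-fold, adjusted p = 0.00539), Trib3 by 1.65 ± 0.41 (3.13-fold, adjusted p = 0.0149) and Atf4 by 0.44 ± 0.11 (1.36-fold, adjusted p = 0.0131). For each of the 3, the highest 1-week animal lay within the 4-week range. The other 5 differed by -0.07 for Cebpb, 0.24 for Nupr1, 0.46 for Chac1, 0.60 for Ddit3 and 0.66 for Ddit4 and were not called, with adjusted p between 0.0654 and 0.847. With rat 76 left out of the 1-week group, Ddit3, Chac1 and Ddit4 were called too, which gave 6 of the 8. With only the 2 groups of 5% protein in the fit, Trib3 was not called (adjusted p = 0.0604). Without run 2 (rats 49 to 54), 1 of the 2 runs fed for 1 week, none of the 8 was called in limma, with 3 at an unadjusted p below 0.05 (Atf4, Atf3 and Ddit3). Trib3 then differed by 0.45 (adjusted p = 0.43), Atf3 by 1.32 (adjusted p = 0.165) and Atf4 by 0.32 (adjusted p = 0.23). Without run 4 (rats 74 to 79), the other one, 4 were called, Ddit4 being added. Trib3 on 5% protein averaged 10.65 at 4 weeks, against 10.19 in run 4 and 7.81 in run 2 at 1 week.

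On 20% protein none of the 8 was called between 4 weeks and 1 week in limma, and none had an unadjusted p below 0.05, where 1.02% of all genes were called higher and 1.5% lower. The differences ran from -0.31 for Trib3 to 0.24 for Cebpb, with adjusted p between 0.387 and 0.993. The 95% intervals were narrow for Atf4 (-0.03 to 0.42) and Nupr1 (-0.17 to 0.32) and wide for Trib3 (-1.16 to 0.55) and Atf3 (-0.84 to 0.82).

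The difference between the 2 diet effects was tested as well. It was called for Trib3, by 1.96 ± 0.58 (adjusted p = 0.0482), and for Atf3, by 1.90 ± 0.57 (adjusted p = 0.0484), where 3.54% of all genes were called higher and 2.2% lower. For both genes the diet difference at 4 weeks was the larger. Both calls lay close to the threshold. When each of the 24 animals was left out in turn, Trib3 was called in 5 of the 24 fits and Atf3 in 7, with adjusted p up to 0.0887 and 0.0883. Without run 2, neither was called, at 0.75 for Trib3 (adjusted p = 0.35) and 1.23 for Atf3 (adjusted p = 0.44). Without run 4, both were called, at 3.16 for Trib3 and 2.58 for Atf3, and so was Atf4. The other 6 genes gave -0.31 for Cebpb, 0.16 for Nupr1, 0.25 for Atf4, 0.38 for Chac1, 0.39 for Ddit3 and 0.60 for Ddit4, none of them called.

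Ordered by level, 5% protein at 4 weeks came out highest for 7 of the 8 genes and 5% protein at 1 week next. For Atf4, Ddit3, Nupr1, Chac1 and Ddit4, 20% protein at 4 weeks followed and 20% protein at 1 week was lowest. For Atf3 and Trib3 the 20% groups stood the other way round. The step between the 20% groups was called for none of these 7 genes. That between the 5% groups was called for Atf4, Atf3 and Trib3 only. The step between 5% protein at 1 week and the 20% group below it was called for Ddit3 (0.76, adjusted p = 0.0127), Trib3 (2.95), Nupr1 (1.04), Chac1 (0.79) and Ddit4 (1.25). That step was 0.31 for Atf4 (adjusted p = 0.0666) and 0.38 for Atf3, neither called. Cebpb alone had 20% protein at 4 weeks on top, at a mean of 8.22 ± 0.36 (SD), and 5% protein at 4 weeks lowest, at 7.92 ± 0.16, and none of its neighbouring groups differed at an adjusted p below 0.05.

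The labels do not say what a run of animal numbers is. Run 1 (rats 22 to 32) and run 3 (rats 59 to 73) were fed for 4 weeks, and run 2 (rats 49 to 54) and run 4 (rats 74 to 79) for 1 week. At 1 week each run holds 3 animals of each diet. Trib3 there was 10.18, 9.91 and 10.49 in rats 74, 75 and 76 of run 4 on 5% protein, against 8.34, 7.09 and 7.99 in rats 49, 50 and 54 of run 2 on the same diet. The values did not overlap, and the difference between the runs within the 5% animals was 2.39 (adjusted p = 0.00057), where 0.342% of all genes were called higher in run 4 and 0.441% lower. Within the 20% animals Trib3 differed by -0.02 between runs (adjusted p = 0.982). The diet difference of Trib3 was 4.15 ± 0.32 in run 4 (adjusted p = 1.42e-07) and 1.74 ± 0.32 in run 2 (adjusted p = 0.00255). These effects differed by 2.41 ± 0.45 (adjusted p = 0.00299). For the other 7 genes the difference between runs was not called (adjusted p between 0.293 and 0.969), and 4.76% of all genes were called higher and 2.53% lower in it.

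**Figure D3:**
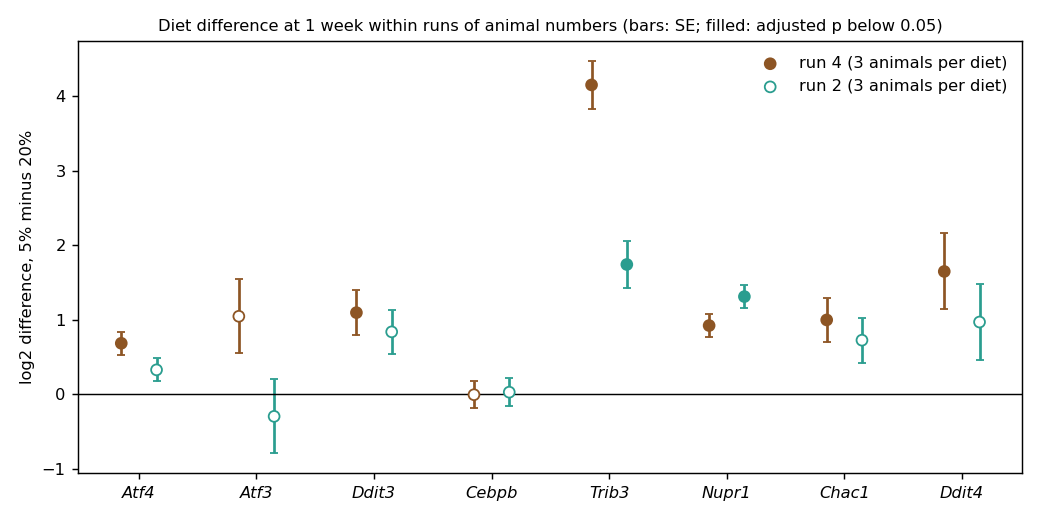
Difference in log2 intensity (vertical axis, 5% minus 20% protein) of the 8 genes at 1 week within run 4 (brown) and run 2 (green), each with 3 animals per diet, with bars of 1 SE and filled points at an adjusted p below 0.05. Trib3 stands at 4.15 in run 4 and 1.74 in run 2, and Atf3 lies on opposite sides of 0.

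Within run 4, the same 6 genes were called higher as over both runs, where 4.04% of all genes were called higher and 4.45% lower. Within run 2, only Trib3 and Nupr1 were, where 2.86% of all genes were called higher and 4.71% lower, and Nupr1 differed by 0.92 in run 4 and 1.31 in run 2. Atf4 differed by 0.69 in run 4 and 0.33 in run 2, and Ddit3 by 1.10 and 0.84 in the same order. Atf3 differed by 1.05 in run 4 (adjusted p = 0.229) and -0.29 in run 2 (adjusted p = 0.821). At 4 weeks run 3 holds 1 animal on 5% protein and 4 on 20%, and run 1 holds 5 and 2. The 5% arm of run 3 is thus rat 59 alone, assumed to vary like the animals of the other groups. The number of genes called higher was 6 in run 3 and 7 in run 1, where 6.83% and 8.32% of all genes were, and Ddit4 missed the threshold in run 3 (1.99, adjusted p = 0.0688). Cebpb differed by -0.68 in run 3 and 0.14 in run 1, and neither was called.

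Single animals also stood apart over several of the genes at once. Rat 76, on 5% protein for 1 week, was the highest of its group in 6 of the 8 genes and averaged 0.92 log2 units above the group mean. Ddit4 reached 9.56 in it and Atf3 7.76, while its Nupr1 lay below the mean of its group. Rat 26, on 5% protein for 4 weeks, was the lowest of its group in 6 of the 8 genes and above the group mean in none of them, by 0.52 below on average. With each group's mean taken away, the 24 animals gave a Pearson r of 0.64 between Atf3 and Chac1, of 0.64 between Chac1 and Ddit4 and of 0.63 between Ddit3 and Ddit4. Nupr1 had an r between -0.02 and 0.15 with the other 7. These are descriptions over animals that share runs and array processing.

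The lists that follow hold other genes of the pathway. They are counts from the same fit, and the shares of all genes called given above for each time are the background for them. Those shares hold for the adjusted threshold only. No share of all genes was counted at an unadjusted p below 0.05, so counts at that threshold stand without a background here and elsewhere. Each is given as the genes measured of the symbols listed, and a list can hold both the old and the current symbol of 1 gene. For known ATF4 targets, 29 genes were measured of 38 symbols, and 8 transfer RNA synthetases listed by old symbols were not counted. At 4 weeks 17 of them rose and 1 fell, with a median difference of 0.91, and at 1 week 10 rose and none fell, with a median of 0.32. Phgdh, the entry enzyme of serine synthesis, rose by 3.74 ± 0.44 at 4 weeks and 1.78 ± 0.44 at 1 week. Fgf21, a hormone the liver secretes under protein shortage, rose by 3.66 ± 0.54 and 2.21 ± 0.54 in the same order. Slc7a1, a cationic amino acid transporter, rose by 3.58 ± 0.27 at 4 weeks and 2.23 ± 0.27 at 1 week. Asns, asparagine synthetase, rose by 3.44 ± 0.48 and 1.88 ± 0.48. Slc7a11, the cystine and glutamate exchanger, had the largest difference of the list at 1 week, at 2.37 ± 0.37. The gene that fell at 4 weeks was Gpt2, an alanine aminotransferase, by 0.65, and it was named after its value was seen.

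Upstream of ATF4, 17 genes were measured of 20 symbols for eIF2 subunits, the exchange factor eIF2B, the eIF2 kinases and the phosphatase subunits. The list also holds the related factors Gcn1, Eif2a, Dnajc3 and Nck1. At 4 weeks 8 rose and 1 fell, with a median of 0.35, and at 1 week none was called in limma, with a median of 0.06 and 5 at an unadjusted p below 0.05 (4 of them higher). Ppp1r15a, which encodes the stress-induced phosphatase subunit GADD34, rose by 1.14 ± 0.23 at 4 weeks and differed by 0.48 ± 0.23 at 1 week (adjusted p = 0.271). Eif2b3 and Eif2b2, subunits of the exchange factor, rose at 4 weeks by 1.08 ± 0.24 and 0.76 ± 0.13. Ppp1r15b, which encodes the constitutive phosphatase subunit, fell by 0.71 ± 0.14 at that time. Gcn1 and Eif2a rose by 0.51 ± 0.10 and 0.35 ± 0.07 at 4 weeks. None of the kinases measured, Eif2ak1, Eif2ak3 and Eif2ak4, was called at either time, and Eif2ak2 was not measured. Their differences at 4 weeks were -0.11, 0.19 and 0.24 in that order (adjusted p between 0.242 and 0.437 in limma). Within run 4 at 1 week, 5 of the list were called higher and none lower, with a median of 0.20, and within run 2 none higher and 1 lower, with a median of -0.11. The shares of all genes called were 4.04% higher and 4.45% lower in run 4, and 2.86% higher and 4.71% lower in run 2.

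For other leucine zipper factors, 24 genes were measured of 28 symbols. At 4 weeks 6 rose and 5 fell, with a median of 0.06, and at 1 week 2 rose and none fell, with a median of -0.03. Of those called at 4 weeks, the ones that moved furthest were lower: Hlf by -1.57 ± 0.27, Tef by -1.30 ± 0.40 and Crem by -1.06 ± 0.21. Hlf and Tef are clock-controlled factors, and Crem belongs to the cAMP response. Nfe2l1, which controls proteasome genes, rose by 0.97 ± 0.11 at 4 weeks and 0.40 ± 0.11 at 1 week. Cebpg, a C/EBP partner of ATF4, rose by 0.58 ± 0.10 and 0.57 ± 0.10.

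**Figure D4:**
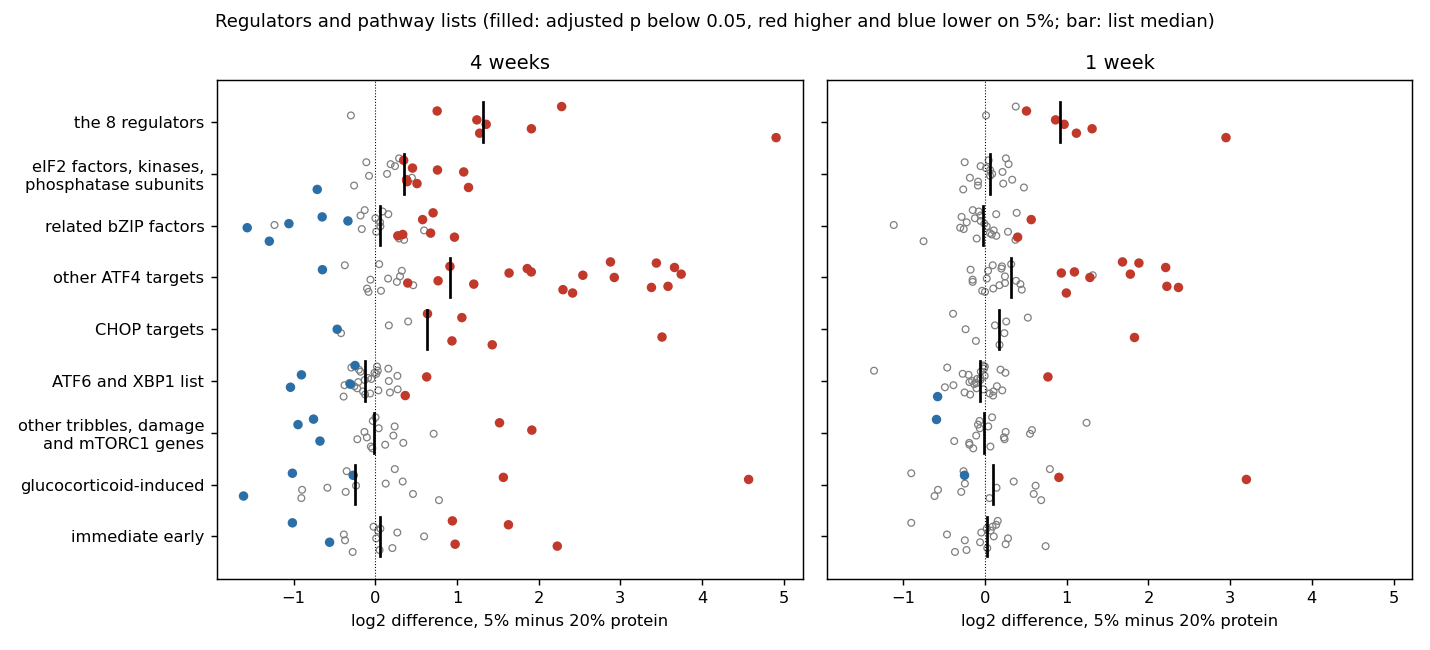
Difference in log2 intensity (horizontal axis, 5% minus 20% protein) of every measured gene of the 8 regulators and of 8 lists, at 4 weeks (left) and at 1 week (right). Filled red points are called higher, filled blue points called lower, open points not called, and the bar is the list median, which for other ATF4 targets stands at 0.91 at 4 weeks and 0.32 at 1 week.

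For CHOP targets, 9 genes were measured of 13 symbols. The list does not record whether CHOP raises or lowers each gene, so its counts do not measure CHOP activity. At 4 weeks 5 rose and 1 fell, with a median of 0.64, and at 1 week 1 rose and none fell, with a median of 0.18. Niban1, a stress-induced regulator of translation and survival, rose by 3.51 ± 0.46 at 4 weeks and 1.83 ± 0.46 at 1 week. Tnfrsf12a, the receptor of the cytokine TWEAK, and Bcl2l11, which encodes the death-promoting protein BIM, rose at 4 weeks by 1.43 ± 0.30 and 1.06 ± 0.18. Tnfrsf10b, a death receptor, rose by 0.94 ± 0.22 at 4 weeks and differed by -0.11 ± 0.22 at 1 week. Bcl2 rose by 0.64 ± 0.18 at 4 weeks and differed by -0.39 ± 0.18 at 1 week. The gene that fell at 4 weeks was Ero1a, by 0.47 ± 0.16, and Ero1b differed by -0.42 ± 0.19 then (adjusted p = 0.108).

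All 31 listed targets of ATF6 and XBP1, the other 2 arms of the unfolded protein response, were measured. At 4 weeks 2 rose and 4 fell, with a median of -0.12, and at 1 week 1 rose and 1 fell, with a median of -0.06. Sdf2l1 and Edem1, which act on misfolded protein in the endoplasmic reticulum, fell at 4 weeks by 1.04 ± 0.28 and 0.90 ± 0.16. Ern1, which encodes the sensor IRE1 alpha, rose by 0.63 ± 0.11 at 4 weeks and 0.77 ± 0.11 at 1 week. Xbp1, the factor that IRE1 activates, fell by 0.58 ± 0.15 at 1 week and differed by -0.39 ± 0.15 at 4 weeks (adjusted p = 0.056). The 1-week counts differed by run: 9 were called higher and none lower in run 4, against 2 higher and 12 lower in run 2. Of all genes, 4.04% were called higher and 4.45% lower in run 4, and 2.86% higher and 4.71% lower in run 2. In the 20% animals at 1 week, 14 of the 31 were called lower in run 4 than in run 2 and 1 higher, where 6.53% and 4.3% of all genes were, and none of the 8 regulators was called in that comparison in limma, with Nupr1 alone at an unadjusted p below 0.05 (0.0205).

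A list of other tribbles genes, growth-arrest genes and mTORC1 inhibitors had 18 genes measured of 19 symbols. At 4 weeks 2 rose and 3 fell, and at 1 week none rose and 1 fell, with medians of -0.01 at both times. Gadd45a and Cdkn1a, which arrest the cell cycle, rose at 4 weeks by 1.92 ± 0.26 and 1.52 ± 0.52. Chac2, the other glutathione-degrading enzyme of the Chac1 family, fell by 0.95 ± 0.17 at 4 weeks, and Castor2, a relative of the arginine sensor of mTORC1, by 0.76 ± 0.17 at 4 weeks and 0.60 ± 0.17 at 1 week. Neither Trib1 nor Trib2 was called at either time.

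Glucocorticoid-induced genes and immediate early genes were listed because Ddit4, Cebpb and Atf3 also respond to those signals. Of the glucocorticoid list, 16 genes were measured of 20 symbols. Of these, 2 rose and 3 fell at 4 weeks, with a median of -0.25. The 1-week counts were 2 higher and 1 lower, with a median of 0.10. The median differed in sign between runs at both times. It was 0.33 in run 1 and -0.75 in run 3 at 4 weeks, where run 3 holds 1 animal on 5% protein. The 1-week medians were 0.34 in run 2 and -0.12 in run 4. Among the 20% animals at 4 weeks, the median difference of run 3 minus run 1 was 0.63. The part of the runs in the pooled medians was not tested. Igfbp1, a secreted partner of insulin-like growth factors, rose by 4.57 ± 0.64 at 4 weeks and 3.20 ± 0.64 at 1 week, and Fkbp5, a chaperone partner of the glucocorticoid receptor, by 1.57 ± 0.16 and 0.90 ± 0.16. Tdo2, tryptophan dioxygenase, fell by 1.61 ± 0.20 at 4 weeks. Of the immediate early list, 17 genes were measured of 19 symbols, 4 rose and 2 fell at 4 weeks, and none was called at 1 week in limma, with 3 at an unadjusted p below 0.05. Myc, a growth factor-responsive transcription factor, rose by 2.23 ± 0.32 at 4 weeks and Egr1, a zinc finger factor, by 1.63 ± 0.49, while Dusp1, a phosphatase on both lists, fell by 1.01 ± 0.31. Fos and Junb were not called at either time.

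Markers of other liver cell types moved with diet as well, mostly downward. Of 9 Kupffer cell markers measured, 8 fell at 4 weeks, and none was called at 1 week in limma, with 2 lower at an unadjusted p below 0.05. Their mean lay between 8.45 and 8.70 in the 5% animals and between 8.98 and 9.69 in the 20% animals at 4 weeks. Of 7 erythroid markers, 2 fell at 4 weeks and 3 at 1 week. At 4 weeks 3 of 8 stellate cell and fibroblast markers, 2 of 5 endothelial markers, 2 of 9 lymphocyte markers and 3 of 7 hepatocyte markers fell, and 2 of 5 cholangiocyte markers rose. The neutrophil markers were dim, with a mean between 4.41 and 4.70 in all animals. None of the 7 measured had an unadjusted p below 0.05 in limma at either time. Of 6 dividing cell markers, none did at 4 weeks, and 1 fell at 1 week, with 4 lower at an unadjusted p below 0.05. Within run 4 at 1 week 5 of those 6 were called lower, with a median of -1.23, where 4.45% of all genes were. Within run 2 none was called in limma, where 2.86% of all genes were called higher and 4.71% lower. In the 20% animals, 4 of the 6 were called higher in run 4 than in run 2, as were 4.3% of all genes. Their median difference was 1.18. In the 5% animals their median was 0.06 and none was called in limma, where 0.342% of all genes were called higher and 0.441% lower. The hepatocyte markers averaged 12.7 to 13.0 in the 5% animals and 13.0 to 13.1 in the 20% animals at 4 weeks. The part of these shifts in the differences of the 8 regulators was not tested.

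Genes whose levels ran most like each regulator over the 24 arrays are given as a description, since the arrays share diet groups and runs. They were picked as the highest r of all genes measured, and how high such a top value comes by chance was not tested. For Trib3 these were Unc5b (Pearson r of 0.98) and Slc7a1 (0.97), and after the group means were taken away Gtpbp2 (0.92) and Unc5b (0.85). For Atf3 they were Dusp8 (0.94) and Clcn3 (0.91), and within groups Dusp8 (0.84) and Fbxo30 (0.83). For Nupr1 they were Aebp2 (0.94) and Eprs1 (0.92), and within groups Spmip4 and Foxa1 (0.74 each). Regulators ran close to each other too, Ddit3 with Atf4 (0.90) and then Usp31 (0.89), Chac1 with Ddit4 and Atf4 (0.88 each), and Ddit4 with Ddit3 (0.89) and Chac1 (0.88).

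Atf4 itself ran closest to C7h19orf25 and Arhgef2 (0.90 each), and within groups to Usp42 (0.76) and Tsga10ip (0.73). Within groups the closest genes were Traf2 (0.72) and Pdik1l (0.71) for Ddit3, Mkx (0.77) and Grhl2 (0.72) for Chac1, and Nefm (0.66) and Traf2 (0.66) for Ddit4. Cebpb ran closest to Nsd1 (0.85) and Rcsd1 (0.82) over all arrays and to the same genes within groups (0.83 and 0.84). Its r with the other 7 regulators over all arrays lay between -0.24 and -0.03.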

How the data were processed

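Per the submitters' processing notes, the values are RMA output, and the authors deposited them as intensity on the unlogged scale. RMA corrects background, normalizes by quantiles and summarises probes, and it leaves no detection call, so no floor can be given and the number of arrays limits the precision. The files name no genome build. Values ran from 3.27 to 15793, and no 2 arrays were identical.

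Of 29214 probe sets, 18644 pair with 1 symbol, 962 with several and 9608 with none, and only those with 1 were used. The log2 values of all 17245 genes were fitted as 4 group means in limma 3.58.1 (R 4.3.3, data.table version 1.17.8), with 20 residual and 3.95 prior degrees of freedom. P-values are two-sided, with Benjamini-Hochberg adjustment over all genes. Diet effects within runs came from means of group and run. The method was tested on simulated data with independent normal values and no runs or well rows, so that test does not cover their effects. Figures used matplotlib 3.10.9.

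The regulators and lists were chosen with earlier results of these data known. Named list genes are at most 4 called with the largest absolute difference at 4 weeks and 2 at 1 week. Gpt2, Bcl2, Ero1a, Ero1b, Trib1, Trib2, Fos, Junb, Gcn1, Eif2a, Dnajc3, Nck1 and the eIF2 kinases were named after their values were seen. Alternatives changed the normalization, offset, filter, probe sets, variance model, batch terms, animals and, after the data were seen, runs.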

Additional observations from a re-analysis of the deposited data

Results flagged for a closer look

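In 32 groups of 6 values (8 genes in 4 groups), the gap of the end value to its neighbour, as a share of the group's range, passed Dixon's 95% critical value for 6 values in 2, and chance alone gives about 1 in 20. These were Atf3 in rat 76 on 5% protein at 1 week (0.655), which lay above its group, and Atf4 in rat 77 on 20% protein at 1 week (0.648), which lay below its group. The diet difference at 4 weeks exceeded that at 1 week by 1.96 for Trib3 and by 1.90 for Atf3, each called in limma by a test of that difference but not without run 2 of the animal numbers (0.75 and 1.23). The diet effect of Trib3 at 1 week was larger in run 4 than in run 2 of the animal numbers by 2.41, also by a test of the difference.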

How the results depend on the processing

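At 4 weeks 7 regulators were called, and 6 to 8 under every alternative run, 7 or 8 with 1 animal left out; the 6 came from run 3 alone, where 1 animal stands for 5% protein. The eighth was Cebpb, called lower with array weights (-0.41, adjusted p = 0.0246) and without rat 29. At 1 week 6 were called, 3 with only the 2 groups compared (Ddit3, Trib3 and Nupr1), 2 in run 2 alone, 4 with well row as a random block, and 4 to 6 with 1 animal left out. Diet by time gave 2 calls, 0 with quantile normalization, an offset of 16, trend and robust estimation or well column, or without run 2, 1 with array weights (Atf3), and 0 to 2 with 1 animal left out. On 5% protein over time 3 were called, 0 without run 2, 3 to 6 with 1 animal left out, and on 20% protein 0 throughout. Leaving out run 2 or run 4 was chosen after seeing the data. No called value changed sign. Values not called did, such as Atf3 at 1 week (-0.29 in run 2) and Cebpb at 4 weeks (0.14 in run 1). The cause of a lost call was not tested. At 1 week no well row holds both diets. No paired analysis was possible because each animal number occurs in 1 group only. RMA values come without a measure of signal over background, so what dim probe sets limit is unknown.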
